A study of Drosophila melanogaster with 60 samples.

Results

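Pleiohomeotic (Pho) was mapped by chromatin immunoprecipitation and sequencing (ChIP-seq) in mesodermal nuclei of Drosophila melanogaster embryos in which the Hox protein Ultrabithorax (Ubx) was targeted for degradation, beside embryos without that driver. The 6 peak lists, 3 from each genotype, are 6 of the 60 samples of a series that also maps Ubx and the histone marks H3K27ac and H3K27me3. Overlapping peaks of the 6 lists were merged into 123138 regions. A degradation-only region lay under peaks of all 3 degradation lists and of no control list, and 796 regions (0.646%) did so. A control-only region lay under peaks of all 3 control lists and of no degradation list, which held for 1059 regions (0.86%). A further 6008 regions (4.88%) were kept, that is, present in all 6 lists.

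The degradation genotype was twi-INTACT, Mef2>Nslmb,GFP-Ubx, in which the driver of the muscle gene Mef2 turns on Nslmb, a degrader that targets GFP-tagged proteins. The control genotype was twi-INTACT; UAS-Nslmb,GFP-Ubx, with the same degrader transgene but no Mef2 driver. Both genotypes thus carried GFP-tagged Ubx and the nuclear tag under twi, and both were taken at embryonic stages 14 to 17. INTACT captures tagged nuclei of 1 tissue from whole embryos. Ubx was not mapped in these genotypes in the lists used here, so its loss could not be checked. The nuclei were checked through H3K27ac lists of the same genotypes at 8 muscle marker starts, of which 7, 2 and 2 carried a peak in the degradation lists and 7, 3 and 3 in the control lists. For 8 neuronal marker starts the counts were 5, 3 and 3 in the degradation lists and 4, 1 and 6 in the control lists. More neuronal than muscle starts thus carried a peak in degradation lists 2 and 3 and in control list 3. In those lists the mark did not set muscle apart from neuronal genes. The H3K27ac libraries are also not the Pho libraries themselves.

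Pho is the fly counterpart of mammalian YY1. It binds DNA through zinc fingers at a site with the core GCCAT and, with Sfmbt, forms the complex that anchors Polycomb repression at Polycomb response elements. Such elements keep Hox genes and other developmental regulators silent outside their domains, and Pho is also found at many active promoters.

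The sequences at the middle of the leading regions are shown because the presence of the Pho core can be read from them directly. For each class the regions were ordered by the lowest percentile of their fold within the lists that held them. Up to 2 of the first 3 in each class are given as 200 bp of the plus strand of release 6 of the genome (dm6), from RefSeq, with the core in capitals on either strand (GCCAT or ATGGC).
Degradation-only, CG3308, 3R:21273362-21273561: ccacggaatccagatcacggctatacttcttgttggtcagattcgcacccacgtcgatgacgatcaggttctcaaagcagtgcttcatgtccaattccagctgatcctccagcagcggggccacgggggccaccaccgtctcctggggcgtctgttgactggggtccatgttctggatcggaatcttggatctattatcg
Degradation-only, Eip74EF, 3L:17590913-17591112: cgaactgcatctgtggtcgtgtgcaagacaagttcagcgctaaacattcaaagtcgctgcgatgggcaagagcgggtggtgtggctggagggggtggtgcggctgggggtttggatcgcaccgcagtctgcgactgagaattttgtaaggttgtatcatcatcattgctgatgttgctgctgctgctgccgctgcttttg
Control-only, mRpS14, X:19480805-19481004: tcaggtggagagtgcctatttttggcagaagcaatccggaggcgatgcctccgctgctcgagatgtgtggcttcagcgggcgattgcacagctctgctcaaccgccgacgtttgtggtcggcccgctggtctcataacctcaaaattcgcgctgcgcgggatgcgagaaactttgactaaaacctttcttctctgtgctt
Control-only, nAChRbeta2, 3R:24502970-24503169: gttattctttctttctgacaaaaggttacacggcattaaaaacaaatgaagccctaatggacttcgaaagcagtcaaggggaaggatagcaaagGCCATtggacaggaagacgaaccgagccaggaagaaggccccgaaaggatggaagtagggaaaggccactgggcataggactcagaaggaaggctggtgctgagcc
Kept, spok, 3R:3344543-3344742: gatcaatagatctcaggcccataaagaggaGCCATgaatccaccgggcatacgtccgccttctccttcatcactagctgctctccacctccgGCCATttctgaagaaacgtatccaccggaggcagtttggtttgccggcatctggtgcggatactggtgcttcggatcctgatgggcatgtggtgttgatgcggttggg
The spok window held the core 2 times, the nAChRbeta2 window held it 1 time, and the other windows shown held none.

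Over whole classes, the 200 bp at the region's middle held GCCAT on either strand in 42.3% of degradation-only, 38.1% of control-only and 43.5% of kept regions, against 42.6% of all regions. Windows 1 kb to either side held it in 38.3%, 36.4%, 35.4% and 36.6%. Degradation-only regions were thus close to the share of all regions, and control-only regions were below it and nearer to their own flanks. The longer form GCCATT, which contains the core, was in 18.3%, 14.8%, 16.5% and 17.2% of the windows and in 16.1%, 14.9%, 14.1% and 14.9% of the flanks. GAGAG, a motif of the recruiter GAGA factor, was in 25.4%, 25.4%, 25.2% and 24.5%. The homeodomain palindrome TAATTA was in 6.28%, 6.70%, 4.46% and 7.52%, and in 11.3%, 11.5%, 11.4% and 12.4% of the flanks. The repeat CACACA was in 24.4% of degradation-only windows, 14.1% of control-only windows and 12.4% of kept windows, against 17.7% of all windows. Its shares in the flanks were 19.2%, 15.1%, 13.0% and 15.7%, so degradation-only regions were the highest there too. These shares are descriptions and were not tested.

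The lists themselves were long and weakly enriched. The degradation lists held 52446, 45668 and 56274 peaks over 14.2, 11.9 and 15.04 Mb, and the control lists 53805, 53696 and 61534 peaks over 14.4, 14.2 and 18.5 Mb. Control list 3 was the longest and degradation list 2 the shortest, and the groups overlapped (exact permutation test, two-sided, p = 0.4 for the number of peaks and for the covered length). The fold of a peak, the authors' enrichment over background, is not scaled between libraries. Its median was 1.83, 1.88 and 1.78 in the degradation lists and 2.02, 2.00 and 1.95 in the control lists. All 3 control lists lay above all 3 degradation lists, which gave the smallest p that 3 lists against 3 allow (exact permutation test, two-sided, p = 0.1). The files give no read depth, so the depth behind each list is unknown. Degradation list 1 and control lists 1 and 2 came from sequencing lane 5 and the other lists from lane 6, per the sample descriptions.

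Pho peaks overlapped as much between genotypes as within them. A median of 41.1% of the peaks of one list overlapped a peak of another list of the same genotype (range 35.0% to 47.0% over 12 ordered pairs). Between lists of different genotypes the median was 40.3% (range 31.3% to 49.8% over 18 ordered pairs). Of all regions, 49747 (40.4%) were in 1 list. Of the 18178 regions in exactly 3 lists, 796 (4.38%) were degradation-only, 1059 (5.83%) control-only and 16323 (89.8%) mixed lists of both genotypes. Each genotype-only class is 1 choice of 3 lists, while the mixed count pools every other choice. The larger mixed share is thus not in itself a result. The next classes also pool several choices. They held 3967 regions in 2 degradation lists and no control list and 5969 in 2 control lists and no degradation list. Regions in all 3 degradation lists and 1 control list numbered 3014, and those in 1 degradation list and all 3 control lists 2825.

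**Figure D1:**
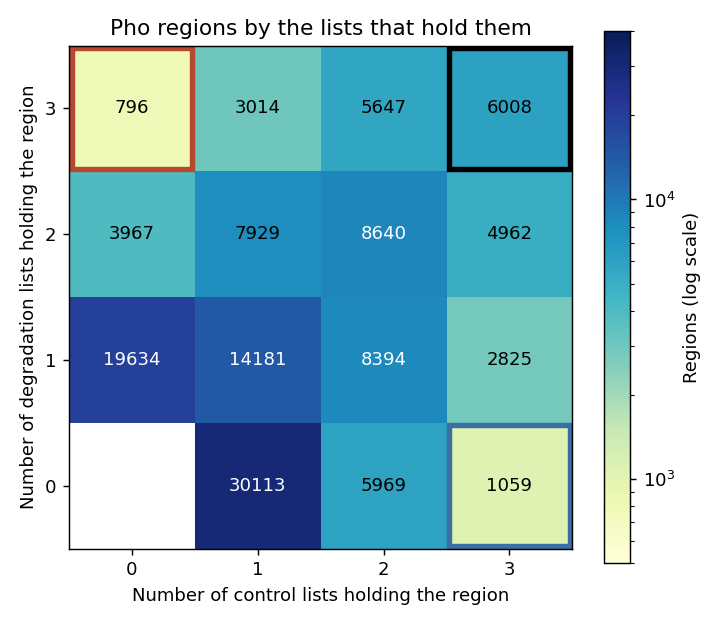
The grid counts regions by the number of degradation lists (vertical axis) and control lists (horizontal axis) that hold them, with a logarithmic colour scale. The outlined corners hold 796 degradation-only, 1059 control-only and 6008 kept regions. The degradation-only and control-only corners are the smallest cells, and each is a single choice of lists where most other cells pool several.

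Region by region, the share covered by peaks was compared between genotypes with limma after all lists were trimmed to 11.9 Mb. None of 107224 regions passed an adjusted p of 0.05 (0% called, lowest adjusted p 0.597), while an unadjusted p under 0.05 was reached by 1054 regions that were higher and 555 that were lower in degradation. Windows of 1 kb to either side of a gene's start gave the same count, with 0 of 13108 called (0%, lowest adjusted p 0.923). Before adjustment, 266 windows were higher and 154 lower at 0.05. These unadjusted counts depended on the lists. As deposited, 1219 regions were higher and 1191 lower, and 160 windows were higher and 302 lower. Leaving out control list 1, 2 or 3 gave 724 and 926, 895 and 991, and 781 and 991 regions. Leaving out a degradation list kept more regions higher than lower. Leaving out control list 2 gave 208 windows higher and 302 lower, while leaving out any other list kept more windows higher. The p-values measure the spread between these libraries, since the labels do not say whether they came from separate embryo collections. Which genotype had more regions of its own also depended on the lists' lengths: as deposited, degradation-only regions were 263 fewer (difference -263). With lists trimmed to equal covered length they were 599 more, with 1186 degradation-only and 587 control-only regions. Trimmed to an equal number of peaks they were 305 more. Left out in turn, degradation list 1 gave 124 more and degradation list 2 gave 803 more. Leaving out any of the other 4 lists kept them fewer, with differences of -156 (degradation list 3), -1695, -1663 and -640 (control lists 1, 2 and 3). Leaving out a list of one genotype leaves 1 list fewer to hold that genotype's regions and 1 fewer to lack the other's. The rule thus changes unequally for the classes, so these differences do not by themselves show that the order hangs on a list. Of the regions named here as members, 498 of the 796 degradation-only and 361 of the 1059 control-only regions overlapped a region of their own class in lists of equal covered length.

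**Figure D2:**
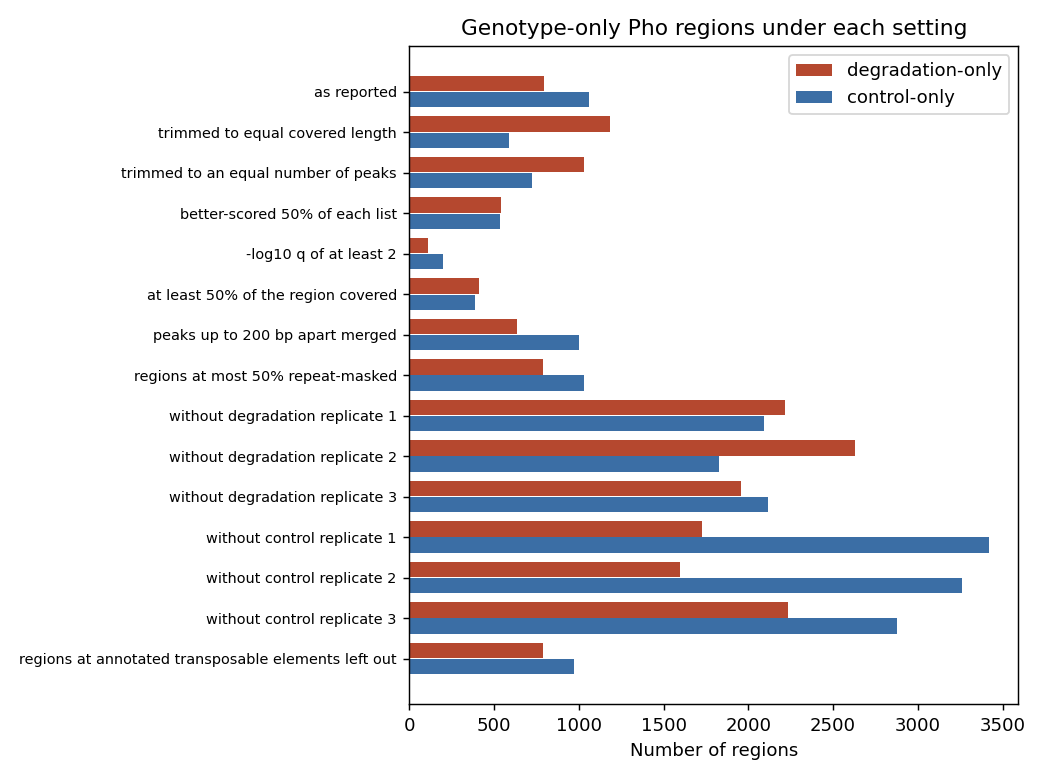
Bars give the number of degradation-only (upper bar) and control-only (lower bar) regions under each setting, from 0. The degradation-only count is below the control-only count as reported (796 and 1059) and above it in lists trimmed to equal covered length (1186 and 587).

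Genotype-only regions were narrower than kept regions and wider than the typical region. Their median width was 423 bp in the degradation-only and 445 bp in the control-only class, against 1100.5 bp in the kept class and 302 bp over all regions. Kept regions made up 75.1% of the regions over 2000 bp and 0.0374% of those up to 250 bp, so a region's width and the number of lists that hold it went together. Members also lay in the middle of their own lists. Degradation-only regions had a median fold of 1.83, 1.88 and 1.79 in the 3 degradation lists, and control-only regions 2.01, 2.01 and 1.93 in the 3 control lists. Kept regions had 1.84, 1.88 and 1.78 in the degradation lists and 2.02, 1.99 and 1.98 in the control lists. The highest fold of any member was 2.84 among degradation-only and 3.06 among control-only regions.

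Along the genome, degradation-only regions lay nearer to genes than control-only regions. The midpoint was in a promoter, within 1 kb of a protein-coding start, for 146 degradation-only (18.3%), 155 control-only (14.6%) and 23.1% of kept regions, against 16.8% of all regions. Exons outside promoters held 23.2% of degradation-only, 14.8% of control-only and 32.5% of kept regions, against 19.2% of all. Introns held 31.8%, 37.96% and 21.1%, against 35.6% of all, and intergenic sequence 26.6%, 32.6% and 23.3%, against 28.4%. The median distance to the nearest start was 4549 bp for degradation-only, 6235 bp for control-only and 2759.5 bp for kept regions, against 4991 bp for all regions. Mean GC content moved in the same order, at 51.3% in degradation-only, 47.96% in control-only and 51.6% in kept regions, against 48.4% in all, and its part in the positions was not tested. The X chromosome held 49 degradation-only (6.16%), 86 control-only (8.12%) and 259 kept regions (4.31%), against 12.1% of all. The Y chromosome held 2, 14 and 139. A kept region lay within 1 kb of 11.9% of degradation-only and 10.9% of control-only regions.

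**Figure D3:**
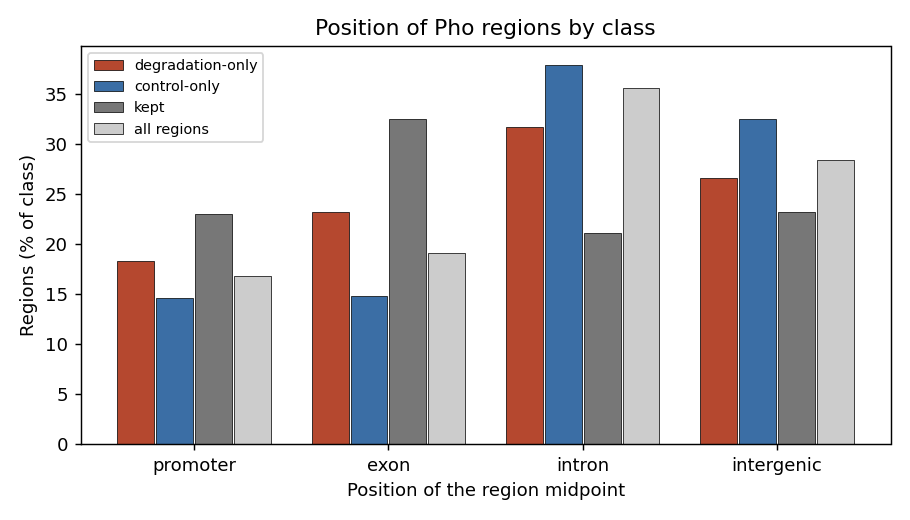
Bars give the share of regions, in percent of each class, whose midpoint lies in a promoter, exon, intron or intergenic sequence, for degradation-only, control-only, kept and all regions. Exons hold 23.2% of degradation-only and 14.8% of control-only regions.

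Transposable elements, mobile repeats, were annotated at 5889 insertions. Only 5 degradation-only regions (0.628%) touched an annotated insertion, against 88 control-only (8.31%) and 326 kept regions (5.43%), with 4.36% of all regions. The difference leaned on control list 2, in which 7.02% of peaks touched an insertion, against 3.34% to 3.98% in the other lists of both genotypes. The classes were then assigned again without control list 2, on the same regions merged from all 6 lists. The shares were 3.01% of 1560 degradation-only and 4.53% of 3154 control-only regions. Leaving out any other list gave 1.12% to 1.65% and 6.88% to 8.99%. The control-only regions at insertions named opus most often (13 regions), then jockey and springer (9 each). Peaks covered 5.01%, 3.95% and 3.73% of the annotated springer bases in the degradation lists and 11.5%, 29.5% and 21.5% in the control lists, so springer did not overlap between groups. Peaks touched 7, 8 and 6 of its 22 insertions in the degradation lists and 14, 16 and 13 in the control lists. For jockey the covered share was 10.2%, 7.90% and 7.01% in the degradation lists and 11.5%, 41.5% and 20.2% in the control lists, which did not overlap either. For opus it was 14.4%, 9.19% and 10.9% in the degradation lists and 13.8%, 38.6% and 17.1% in the control lists, and the opus values overlapped. Over all families, peaks touched 1229, 1037 and 1293 insertions in the degradation lists and 1331, 1740 and 1262 in the control lists (exact permutation test, two-sided, p = 0.2). The families were chosen from the control-only regions, so higher cover in the control lists follows in part from that choice and is not support. How many of the 155 annotated families lie apart by genotype was not counted. Reads of repeats can be placed at more than one copy, and how the authors placed them is not given in the sources used here.

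**Figure D4:**
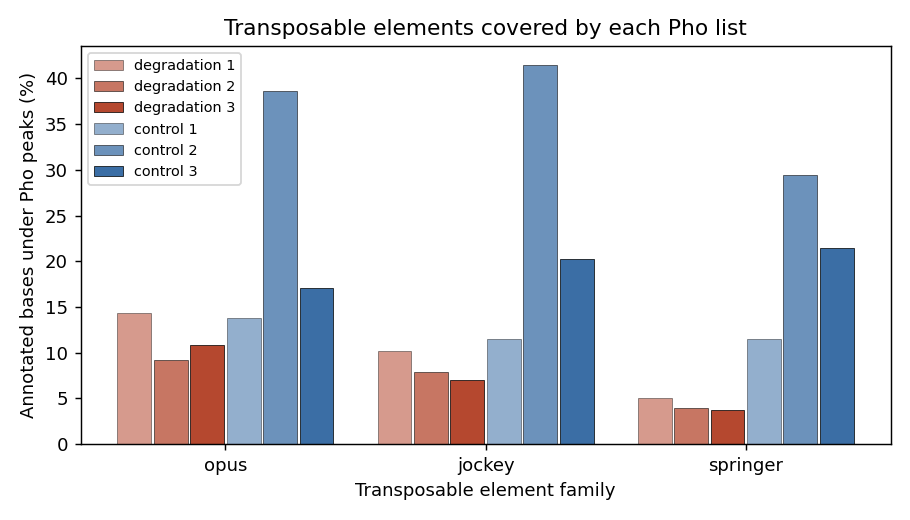
Bars give the percent of annotated bases of 3 transposable element families under Pho peaks, for the 3 degradation lists (left in each cluster) and the 3 control lists. Control list 2 has the tallest bar in each family, at 38.6% for opus, 41.5% for jockey and 29.5% for springer.

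The strongest degradation-only regions by the lowest-percentile order lay at genes of several kinds. The first, 3R:21273224-21273699, was in the promoter of CG3308, with folds of 2.05, 2.31 and 2.00 in the degradation lists. Another, 3L:17590833-17591193, was in an intron of Eip74EF, an ecdysone-induced ETS factor, with folds of 2.10, 2.08 and 2.34. A region 3214 bp from the start of ftz, a pair-rule homeobox gene inside the Antennapedia complex, spanned 3R:6860835-6861110, with folds of 2.03, 2.06 and 1.95. None of these was under a peak of any control list, and none passed limma. The other regions of the 10 were nearest to Cyp9h1, CG13054, Gyg (glycogenin), spg, Ugalt (a UDP-galactose transporter), Nil and CycG (cyclin G). Of the 10 windows, 5 held the Pho core, at CG13054, spg, Ugalt, Nil and CycG.

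The strongest control-only regions included 3 in promoters or exons. The first, X:19480559-19481250, lay in the promoter of mRpS14, a mitochondrial ribosomal protein gene, with folds of 2.89, 2.46 and 2.32 in the control lists. A region 11849 bp from the start of nAChRbeta2, a nicotinic acetylcholine receptor subunit, had 2.37, 2.37 and 2.30. One 26733 bp from H15, a T-box gene of heart and limb patterning, had 2.22, 2.65 and 2.32. The remaining regions were nearest to Tpl94D (in an intron of klg), CG9166 (in an intron of Ptp61F), CG4835, Sap-r, igl, Fancd2 (in an exon of Syp) and Pex10. The core was in 4 of the 10 windows, at nAChRbeta2, CG9166, Sap-r and Fancd2.

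The kept region that ranked highest was in an intron of spok, a cytochrome P450 gene of ecdysone synthesis, at 3R:3344340-3344946. Its fold was 2.96, 2.60 and 3.99 in the degradation lists and 15.1, 7.27 and 3.67 in the control lists. Control lists 1 and 2 were far above the rest, while control list 3 lay within the range of the degradation lists. It lay under peaks of both Ubx lists of late wild-type mesoderm. The kept region in the promoter of Dfd, the Hox gene of the jaw segments, had 2.11, 2.64 and 1.87 in the degradation lists and 2.74, 2.13 and 2.36 in the control lists, which overlapped. Others of the 10 were nearest to blw (an ATP synthase subunit), CG11449, CCY on the Y chromosome, swi2, CG15093, Ddrgk1 and CG9522.

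High folds were found almost only in control lists, although not at control-only regions. Chosen after the values were seen, a fold of at least 5 was reached by 0, 0 and 1 regions in the degradation lists and by 12, 6 and 6 in the control lists. Together these were 19 regions, of which 6 were kept and 0 were genotype-only, so the class rule did not pick them up. At 18 of the 19 the highest value was in a control list. The groups did not overlap in the highest fold of a list, which was 3.07, 3.94 and 5.08 in the degradation lists and 15.1, 9.74 and 14.4 in the control lists (exact permutation test, two-sided, p = 0.1, the smallest possible). The control lists did not share one set of such regions. Control lists 2 and 3 were high together at TpnC41C, w, Proc and CG32795, where control list 1 had folds of 1.78, 1.72, 2.25 and 2.16. At CG32795, close to the eye colour gene w, the fold was 1.76, 1.93 and 1.83 in the degradation lists and 2.16, 6.95 and 11.6 in the control lists. At w itself no peak was called in degradation list 1, degradation lists 2 and 3 had 1.74 and 1.87, and the control lists had 1.72, 7.46 and 12.3. How many copies of these sequences each stock carries was not analysed here, so these folds are enrichment over background as the authors give it and are not shown to be Pho binding. Control list 1 was highest at Hr78, a nuclear receptor gene, where the folds were 2.34, 2.45 and 2.60 in the degradation lists and 11.2, 6.83 and 2.01 in the control lists. Of the 19 regions, 10 lay under peaks of both late wild-type Ubx lists, against 1.11% of all regions. Those at Pdha (100%), SK (97.5%) and CG12115 (94.0%) were mostly repeat-masked sequence, and the rest at most 43.6%. Pdha and SK had a peak in control list 1 only, CG12115 and CG10962 in control lists 1 and 2 only. Of these, CG12115 and CG10962 are among the 10. Whether the overlap reflects binding of both proteins was not tested. The single region that was highest in a degradation list was in the promoter of Dfd, with 1.81, 2.63 and 5.08 in the degradation lists, 4.17 and 3.15 in control lists 2 and 3 and no peak in control list 1.

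**Figure D5:**
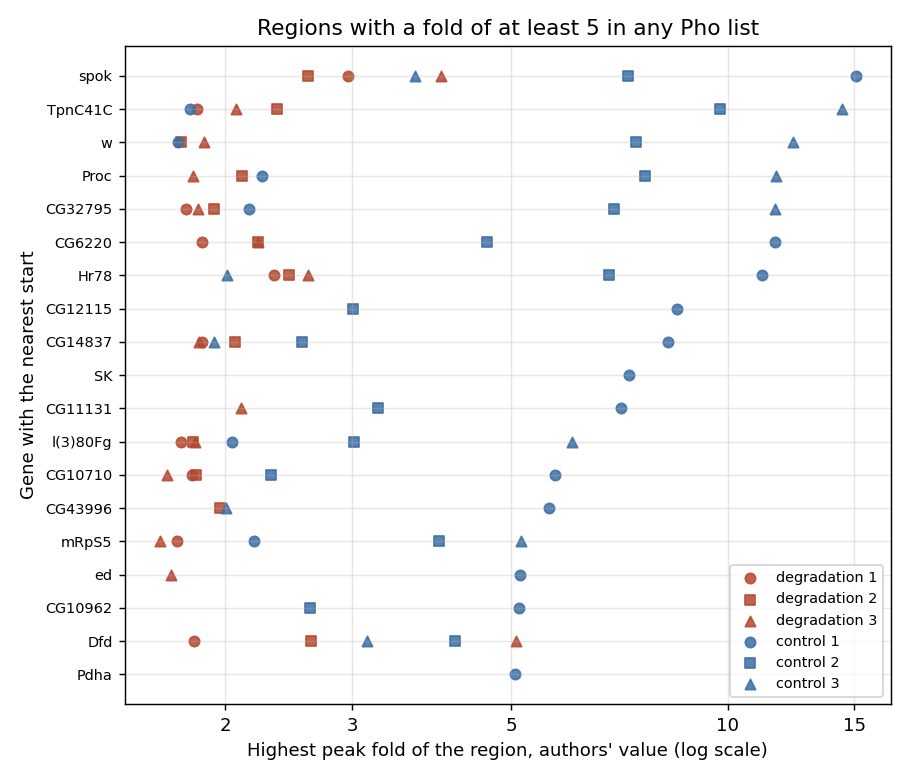
Each point is the highest peak fold of a region in 1 list, on a logarithmic axis, for the 19 regions with a fold of at least 5 in any list, with degradation lists in red and control lists in blue. At 18 of the 19 the rightmost point is from a control list.

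The nearest protein-coding start to a degradation-only region belonged to 719 genes (5.15% of 13968), and that to a control-only region to 858 genes (6.14%). Both sets held 113 genes, which is 15.7% of the first and 13.2% of the second. Most had 1 region: CG6280 had the most degradation-only regions, 4, and Myo81F, a myosin gene in pericentric sequence, the most control-only regions, 24. A kept region was nearest to 3980 genes (28.5%) and lay inside 5140 gene regions (36.8%), which ran from 2 kb upstream of the start to the gene's end. The gene lists below were read against these shares, and long gene regions are hit more often, so a larger share in a list of long genes is not a result about the list.

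Hox genes, which set segment identity, held kept regions in 7 of 8 gene regions (87.5%), with a median gene region of 32563 bp against 4164.5 bp for all genes. The Ubx gene region, 79804 bp with its upstream part, held 7 kept regions, 1 control-only and 0 degradation-only regions. Abd-B held 4 kept regions, Antp and Dfd 3 each, lab and abd-A 2 each and pb 1, and Scr held none. Degradation-only regions were nearest to Antp, 6953 bp from its start within an intron, and to abd-A, 30697 bp from its start, and no control-only region was nearest to a Hox gene. Counted inside gene regions the order turned, with degradation-only regions in 1 Hox gene (Antp, 2 regions) and control-only regions in 2 (Antp and Ubx, 1 each). The best kept region of Abd-B, the most posterior Hox gene, had folds of 1.90, 3.04 and 2.36 in the degradation lists and 2.20, 2.12 and 2.19 in the control lists, which overlapped. At the abd-A promoter the folds were 1.96, 2.18 and 1.84 in the degradation lists and 2.21, 2.36 and 2.40 in the control lists. Among Hox partners and neighbours within the complexes, degradation-only regions were nearest to zen and ftz, and a control-only region to hth, the Hox cofactor. Genes of the fixed set with a kept region also included Dll (6), pros (5), Mef2 (3), and twi, tin, en and SoxN (2 each). Mhc, elav, wg, GATAe and repo had none.

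Regulators of mesoderm and muscle identity were nearest to degradation-only regions in 9 of 34 genes (26.5%), to control-only regions in 6 (17.6%) and to kept regions in 20 (58.8%). The closest degradation-only regions were at lbl, a homeobox gene of muscle founders, which a region overlapped at its start (3R:21433682-21434746), and at mirr, 96 bp from its start. Regions farther out were nearest to pnr, the cardiac GATA factor, tup, an islet-type homeobox gene, and htl, the FGF receptor of mesoderm. Control-only regions also lay at htl, over its start (3R:18052735-18053158), at mirr and at tup, and at zfh1 and eya, so 3 of these genes held regions of both classes. Muscle differentiation genes were nearest to degradation-only regions in 4 of 34 (11.8%), Zasp52, Mlc2, Mf and Mlp84B, and to control-only regions in 3 (8.82%), Act57B, Mhc and Msp300. At Zasp52, a Z-disc gene, and Mlc2, a myosin light chain, the region lay at the start or 100 bp from it, at Mf 8192 bp and at Mlp84B 11615 bp away. The control-only regions lay 2551 to 18345 bp away, so the distances of the classes overlapped. Inside gene regions the counts were 6 and 5 of 34, and Mhc held 1 region of each class.

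Neuronal identity factors were nearest to degradation-only regions in 3 of 29 (10.3%), at hb, grh and tup, and to control-only regions in 5 (17.2%), at ato, tup, unc-4, vvl and pros. Counted inside gene regions the order turned, with 5 of 29 (17.2%) for degradation-only and 1 of 29 (3.45%) for control-only regions. Neuronal differentiation and synapse genes gave 3 of 22 (13.6%) and 4 of 22 (18.2%). Here too ple, which encodes tyrosine hydroxylase, had a region of each class. The degradation-only one lay at 3L:6719537-6719918, 12 bp from the start, and the control-only one at 3L:6718647-6719384, 141 bp from it. The synaptic active-zone gene brp also had one of each. Of 9 glial genes, pnt and gcm2 were nearest to degradation-only regions and none to control-only regions.

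Ectoderm and segmentation genes gave 4 of 26 for degradation-only regions (15.4%), at hh, salm, en and salr. For control-only regions they gave 6 of 26 (23.1%), at gsb, slp1, otp, tsh, en and salr. Thus en and salr had regions of both classes. At salr the control-only region, 2L:11384026-11384387, ended just before a degradation-only one, 2L:11384392-11384796. Inside gene regions the counts were 3 and 2 of 26, so the order of the classes turned as well. Kept regions were nearest to 16 (61.5%). Gut and endoderm factors gave 2 of 11 (18.2%), at fkh and bab1, and 5 of 11 (45.5%), at GATAe, cad, bab2, fkh and dve. Polycomb group genes, Pho's own pathway, gave 1 of 19 for each class (5.26%), Psc for degradation-only and Su(z)12 for control-only regions, near the share of all genes. Trithorax group genes and recruiters gave 2 of 14 (14.3%), grh and mor, and 1 of 14 (7.14%), trx. Hemocyte genes gave 0 and 1 of 13, fat body genes 0 and 0 of 10 and germline genes 0 and 0 of 7. Ionotropic, odorant and gustatory receptor genes gave 10 of 179 for each class (5.59%), and ribosomal protein genes 0 and 4 of 85 (4.71%). The control-only regions nearest to these ribosomal protein genes lay 2333 to 35657 bp from the starts. Inside ribosomal protein gene regions there were 0 of either class.

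At gene starts, the values with the lowest unadjusted p are given because no window passed. The window of GluClalpha, a glutamate-gated chloride channel gene, was covered at 33.1%, 28.0% and 41.8% in the degradation lists and at 0% in all 3 control lists. That of endos, an inhibitor of the phosphatase PP2A, was at 31.1%, 38.8% and 30.8% in the degradation lists and at 0% in the control lists. CG7239 was at 42.1%, 42.6% and 43.4% in the degradation lists and at 4.998%, 0% and 0% in the control lists. All 3 windows lay apart by genotype, which their choice by lowest p favours, and their adjusted p was 0.963 by limma. The same held for CG10948 and CG14005. How many of all windows lie apart by genotype was not counted. In the other direction alpha-Man-Ic, an alpha-mannosidase gene, was at 0%, 0% and 4.65% in the degradation lists and 26.4%, 41.8% and 76.9% in the control lists (limma adjusted p 0.923). CG33966, CG4610, CG10300 and beta4GalNAcTA followed, with group means of 0% to 13.6% in degradation and 34.5% to 62.0% in control lists.

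Histone marks from the same genotypes were set beside the regions after each mark's lists were trimmed to equal covered length. H3K27ac, a mark of active promoters and enhancers, touched 15.8%, 13.1% and 23.9% of degradation-only regions in the degradation lists and 19.3%, 11.4% and 29.0% in the control lists. Kept regions carried it more often in every list, at 26.0%, 21.5% and 52.5% in the degradation lists and 33.5%, 18.8% and 57.5% in the control lists, and they are also wider. Control-only regions carried it at 12.9%, 8.88% and 25.9% in the degradation lists and 16.3%, 7.74% and 31.5% in the control lists. The lists of each group spread widely and the groups overlapped. H3K27me3, the mark laid down by Polycomb complexes, touched 8.92%, 12.9% and 10.1% of degradation-only regions in the degradation lists and 17.7%, 11.9% and 20.0% in the control lists (exact permutation test, two-sided, p = 0.2). On control-only regions it was at 7.37%, 9.07% and 11.4% in the degradation lists and 12.1%, 8.78% and 26.4% in the control lists (exact permutation test, p = 0.3). Kept regions gave 7.61%, 9.92% and 14.3% in the degradation lists and 17.2%, 8.99% and 41.1% in the control lists (exact permutation test, p = 0.3). Among the mark lists, control list 3 was the highest for both marks, and its H3K27ac file names its peaks as another replicate. Control list 3 also held the most peaks of each mark. At equal covered length the H3K27ac lists held 19721, 7027 and 30496 peaks in degradation and 23552, 4257 and 39850 in control. The H3K27me3 lists held 648, 3057 and 3286 peaks in degradation and 12974, 2212 and 28939 in control. How far the number of peaks sets these shares was not tested.

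Ubx itself was set beside the regions through the 2 Ubx lists of late wild-type mesoderm. Peaks of both lists lay on 8 degradation-only (1.01%), 4 control-only (0.378%) and 316 kept regions (5.26%), against 1.11% of all regions. Peaks of a single list lay on 7.79% and 10.1% of degradation-only regions, 6.04% and 6.80% of control-only regions and 15.1% and 20.4% of kept regions, against 6.19% and 7.68% of all regions. Kept regions are also wider, with a median of 1100.5 bp against 302 bp over all regions, and these shares are not adjusted for width.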

How the data were processed

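Pho peak lists of 6 immunoprecipitates were used, with the 6 H3K27ac and 6 H3K27me3 lists of the same genotypes and 2 Ubx lists of late wild-type mesoderm. Per the submitters' processing notes, FastQC, Bowtie and MACS2 were used on dm6; versions, parameters and the use of inputs are not given in the sources used here. Per the labels' protocols, DNA was amplified with the ThruPLEX kit. The authors deposited, for each peak, a fold (a ratio to background), −log10 p and −log10 q, and a score equal to the whole part of 10 times −log10 q to within 1. These authors' values served to describe, rank or trim peaks within a list.

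Peaks on arms 2L, 2R, 3L, 3R, 4, X and Y that overlapped by at least 1 bp were merged into regions (2 peaks lay elsewhere). The gene set was Ensembl's annotation of release 6, restricted to 13968 protein-coding genes. Lists were trimmed by dropping the lowest scores. Covered shares, after an arcsine square-root transformation, were compared with limma 3.58.1 (R 4.3.3, mean-variance trend, Benjamini-Hochberg adjustment at 0.05) over features covered in at least 1 list. The test was tried on simulated data, where recovery of raised features was required only at a spread below that of these lists. Recovery at the lists' own spread is not reported here, so the power of the test is not given. Python 3.11.15, numpy 2.4.6, pandas 2.3.3 and matplotlib 3.10.9 did the rest. Windows named are the 10 regions per class with the highest lowest percentile of fold, up to 5 regions per class and gene list by distance, 20 fixed genes, and the 5 start windows per direction with the lowest unadjusted p. Of 255 listed names in the lists given by name, 242 matched. Motifs were searched on both strands in 200 bp at the region's middle and 1 kb to either side. The members and lists were chosen with earlier results of these data known. Other trimming, score and overlap rules, covariates and leaving out each list were tried as alternatives. One of the kept regions named by this rule is not reported here.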

Additional observations from a re-analysis of the deposited data

How the results depend on the processing

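The class counts followed the lists' length and the overlap rule, and the cause was not tested. Degradation-only minus control-only regions, -263 as deposited, turned to 599 in lists trimmed to equal covered length, 305 at an equal number of peaks, 6 when only the upper 50% of scores was used and 24 where peaks had to cover 50% of a region. It was -89 with peaks of −log10 q of at least 2. Leaving out each list in turn, with regions merged again from the lists that remained, gave -1695 to 803. The rule itself changes unequally for the classes there. Under those exclusions degradation-only regions ranged from 1595 to 2627 and control-only regions from 1824 to 3422, since 1 list fewer has to hold or lack them. Degradation-only regions numbered 412 at 50% cover and 109 at −log10 q of at least 2, for 796 as deposited. Control-only regions, 1059 as deposited, numbered 587 at equal covered length, 532 in the better-scored 50%, 388 at 50% cover and 198 at −log10 q of at least 2. Kept regions, 6008 as deposited, numbered 2630 at equal covered length, 3569 at equal peak number, 575 in the better-scored 50%, 128 at 50% cover and 177 at −log10 q of at least 2. Merging peaks up to 200 bp apart and leaving out repeat-masked regions kept the direction, as did leaving out regions at transposable elements (791, 971 and 5682), chosen after seeing the data.

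Neither limma fit called a region or start window under any alternative, including the replicate block (0 calls, lowest adjusted p 0.682 and 0.396). The lowest adjusted p of any alternative was 0.0752, for start windows with the lane as a covariate. The replicate numbers did not pair the libraries: correlations of same-numbered deviations ran from -0.000147 to 0.00113. A count of 0 calls at this spread does not show that Pho did not differ.

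The genotype difference in H3K27ac on degradation-only minus kept regions, 0.917 points, was -1.65 in lists as deposited and -4.98 to 7.37 with a list left out. On control-only minus kept regions it was 0.618 points, and -3.32 to 5.22 with a list left out. For H3K27me3 these were 5.91 points (-1.72 to 10.3) and 5.33 points (1.32 to 8.56).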
